A study of Mus musculus with 5 samples.

Results

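Ear cartilage was followed through 10 genes in RNA sequencing of mouse ear skin: Col2a1, Acan, Comp, Col9a1, Col9a2, Col9a3, Matn1, Matn3, Cnmd and Cytl1. All 10 are rows of the deposited count table, which holds 27179 Entrez gene identifiers, and they were chosen by name as genes of cartilage matrix and of chondrocytes, the cells of cartilage. The libraries came from skin of mice on the B6 background, 3 from controls and 2 from mice without Cd1d (KO), a surface protein that shows lipid antigens to natural killer T cells. The titles give the control genotype as Cd1d +/- and the KO genotype as Cd1d -/-, while the genotype tag calls the same controls WT. The sources used here state no age, sex or treatment and no number of mice behind a library, so p-values measure the spread between these 5 libraries, which may be technical. The comparison asks how ear transcripts differ without Cd1d. Library values stand in the order control replicate 1, 2, 3 and KO replicate 1, 2.

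The mouse auricle carries a thin plate of elastic cartilage between layers of skin, so RNA of whole ear tissue can hold chondrocyte transcripts. Cartilage matrix is built on fibrils of type II collagen, with type IX collagen on their surface, and on aggrecan, a proteoglycan whose sulfated chains hold water. Comp and the matrilins link these networks to each other, and chondromodulin, the product of Cnmd, keeps blood vessels out of cartilage. Transcription of many of these genes depends on the factor Sox9, helped by Sox5 and Sox6.

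Total counts lay between 32353957 and 79160005 per library. Keratinocyte genes of the epidermis were high in every library, with a summed level of Krt5, Krt14, Krt1, Krt10, Ivl and Lor between 33950 and 50520 CPM (each count over its library's total in units of 1e6 counts, scaled with TMM factors). The target gene Cd1d1 lay between 5.52 and 9.87 CPM in controls and at 1.19 and 1.12 CPM in KO (log2 fold change -2.67, SE 0.29, edgeR quasi-likelihood test, adjusted p = 0.0152). KO replicate 1 stood apart in hair follicle genes (keratins and Tchh), whose summed level was 592 CPM against 11.3 to 20.4 CPM in the other 4 libraries. Across all genes the fold change between KO and control moved with transcript length (Spearman's rho -0.55 across genes, which are not independent replicates), so the members and the genes and lists named beside them are also given after correction for these trends, with an offset for each gene and library fitted on transcript length and GC content.

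The starts of 3 members are shown here for their place among the 10 genes: Cytl1 had the highest level per length of the 10 genes, Acan had the lowest fold change in KO, and Matn1 was at the detection floor. RefSeq promoter windows on GRCm38.p6 were matched for 7 of the 10 members, and Col9a1 had windows for a pair of separate starts, which gene totals cannot tell apart. Each sequence is the 250 bases before the annotated start, on the plus strand of its chromosome, with the last 40 bases in capitals. Cytl1 lies at chr5:37735269-37735518, Acan at chr7:79052976-79053225 and Matn1 at chr4:130944135-130944384.
Cytl1: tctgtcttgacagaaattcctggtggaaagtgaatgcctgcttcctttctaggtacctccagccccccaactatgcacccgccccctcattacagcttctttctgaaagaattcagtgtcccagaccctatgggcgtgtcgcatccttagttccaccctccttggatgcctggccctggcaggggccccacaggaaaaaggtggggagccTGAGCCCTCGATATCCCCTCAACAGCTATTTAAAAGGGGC
Acan: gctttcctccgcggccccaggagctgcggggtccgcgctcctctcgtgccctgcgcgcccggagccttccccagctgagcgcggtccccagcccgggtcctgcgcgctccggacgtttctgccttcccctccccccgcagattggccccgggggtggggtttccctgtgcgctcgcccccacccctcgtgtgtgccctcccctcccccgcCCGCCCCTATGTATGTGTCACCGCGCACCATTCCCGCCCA
Matn1: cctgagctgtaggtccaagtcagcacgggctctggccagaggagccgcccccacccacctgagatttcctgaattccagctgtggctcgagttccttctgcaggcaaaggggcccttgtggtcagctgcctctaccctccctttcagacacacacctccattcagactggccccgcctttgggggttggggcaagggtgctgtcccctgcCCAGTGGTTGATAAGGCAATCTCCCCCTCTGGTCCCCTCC
GC content was 54.8% for Cytl1, 74.4% for Acan and 62% for Matn1. The letters ACAAT, a core shared by binding sites of Sox factors, or their reverse complement ATTGT, were in 0 of the 8 member windows and in 27.7% of 32851 windows of the same length. The letters TATAAA or TTTATA were in 0 of the 8 and in 12.4% of all windows. These counts say only that the letters are not in these windows.

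Cartilage transcripts were present in all 5 libraries, and 8 of the 10 genes were well covered. The summed level of the 10 genes was 658, 673 and 779 CPM in controls and 683 and 780.3 CPM in KO, so the groups overlapped. Per length, as RPKM, which is CPM divided by the kilobases of the longest annotated transcript, Cytl1 led with a mean of 222 ± 50.8 RPKM over the 5 libraries (SD, n = 5). Cytl1 encodes a small secreted protein of chondrocytes, and 98.2% of the 15809 tested genes with a known length had a lower mean RPKM. Col9a3 followed at 38.2 ± 6.26 RPKM, and the lowest library of Cytl1 (175 RPKM) lay above the highest of Col9a3 (48.1 RPKM). Col9a2 (22.3 RPKM), Cnmd (20.3), Col2a1 (18), Col9a1 (15.2), Acan (14.4) and Comp (12.6) came next, and each of these overlapped its neighbour in the order over the libraries. Matn3 was lower, at 0.378 ± 0.087 RPKM, below the lowest library of Comp (9.48 RPKM).

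**Figure D1:**
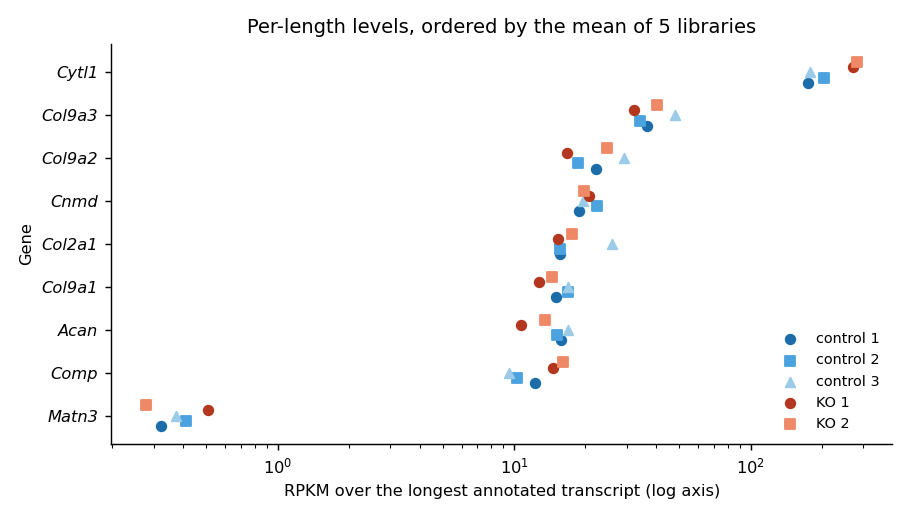
RPKM over the longest annotated transcript (log axis) of 9 cartilage genes in each of 5 libraries, ordered by their mean, with circles, squares and triangles for replicates 1, 2 and 3. Cytl1 sits between 175 and 282 RPKM, apart from the other genes, and Matn3 lies below 1 RPKM, while Matn1 is not drawn.

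Matn1, the gene for matrilin 1 of cartilage such as that of the trachea, was at the detection floor. It had 0 counts in control replicates 1 and 2 and in both KO libraries and 2 counts in control replicate 3. A count of 3, the limit that a count of 0 allows, is 0.036 to 0.07 CPM in the 4 libraries with 0 counts and covers counting error only. Matn3, the gene for matrilin 3, was detected but low, with 82, 95 and 37 counts in the 3 control libraries and 78 and 36 in KO. Among the other matrix genes the matrilin gene Matn4 was higher, at 9.76 RPKM over the 5 libraries. Matn1 did not pass the filter on low counts and was not tested, so 9 of the 10 members entered the comparison.

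A gene passed at an adjusted p under 0.05 (edgeR quasi-likelihood test of KO against control, Benjamini-Hochberg over all 17472 genes), which 3.76% did, 2.71% as higher and 1.05% as lower in KO. Of the 9 tested members 1, Cytl1, passed as higher, 0 passed as lower and 8 did not pass. At an unadjusted p under 0.05, 2 were higher and 1 was lower, where 21.9% of all genes reached it, 11.6% as higher and 10.3% as lower. With DESeq2, which called 12.7% of its genes, 3 members passed, and with limma voom, which called 28%, 3 did. The median log2 fold change of the 9 members was -0.13, beside -0.018 for all genes tested. KO and control values did not overlap for 4 of the 9 members, higher in KO for Cytl1 and Comp and lower in KO for Acan and Col9a1, where 39.9% of all genes did not overlap, 19.9% higher and 20% lower. In bulk tissue, a change in the number of chondrocytes and a change in RNA per chondrocyte cannot be told apart.

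**Figure D2:**
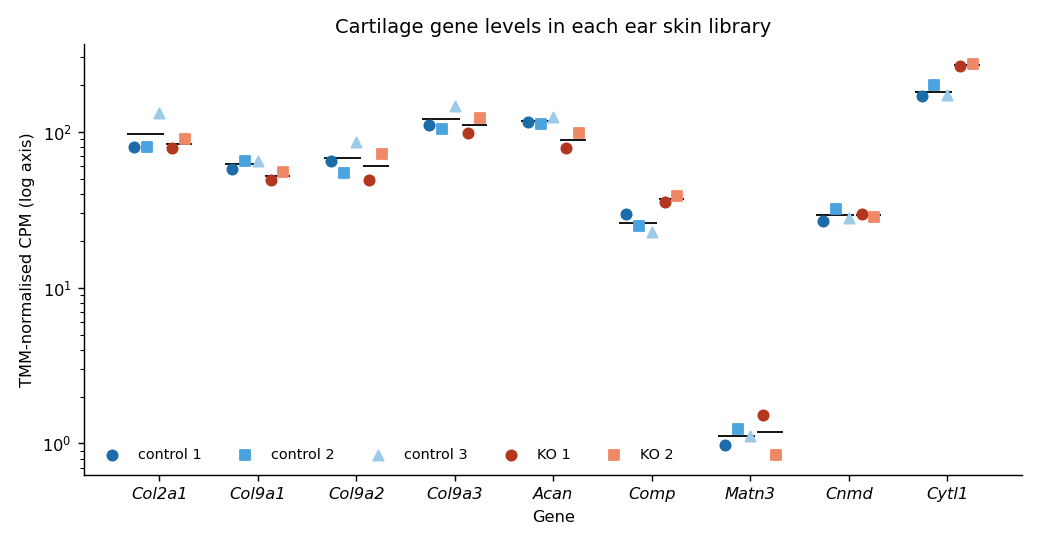
TMM-normalised CPM (log axis) of 9 cartilage genes in each library, with a horizontal line at the mean of the 3 control and of the 2 KO libraries. Cytl1 lies at 263 and 274 CPM in KO and between 171 and 199.6 CPM in controls, and Col2a1 is high in control replicate 3 at 133 CPM.

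Type II and type IX collagen form the fibrils of cartilage, and their 4 genes did not pass the test. Col2a1, which encodes the single chain of type II collagen (Entrez 12824, chromosome 15, 97975602 to 98004724), was 79.5, 79.5 and 133 CPM in controls and 78.4 and 89.5 CPM in KO. Control replicate 3 was high and the other 4 libraries lay close together. The groups overlapped with or without control replicate 3 (all libraries: log2 fold change -0.21, SE 0.21, edgeR adjusted p = 0.603, 95% interval -0.68 to 0.26). Without control replicate 3 the log2 fold change of Col2a1 was 0.077.

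Col9a1, Col9a2 and Col9a3 encode the 3 chains of type IX collagen. Col9a1 was 57.6, 65.1 and 64.5 CPM in controls and 48.9 and 55.2 CPM in KO. Both KO libraries lay below every control library, but the difference did not pass (log2 fold change -0.26, SE 0.12, edgeR adjusted p = 0.247). Col9a2 was 65, 54.6 and 85.4 CPM in controls and 48.9 and 71.9 CPM in KO. The groups overlapped, with control replicate 3 highest and KO replicate 1 lowest (log2 fold change -0.18, SE 0.20, edgeR adjusted p = 0.661). Col9a3, the most abundant chain gene per length, was 111, 104 and 146 CPM in controls and 97.8 and 122 CPM in KO. It too overlapped and was highest in control replicate 3 (log2 fold change -0.13, SE 0.16, edgeR adjusted p = 0.686). On the opposite strand the gene Tcfl5 shares 234 of the 3853 exonic bases of Col9a3, and whether counting used strand was not given in the sources used here. No other member had an overlapping gene in GENCODE.

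The balance of the type IX chain genes was close in all 5 libraries. Col9a3 gave 49 to 52.1% of their summed RPKM, Col9a2 26.7 to 31.1% and Col9a1 17.9 to 24.3%, and KO and control shares of Col9a1 and Col9a2 overlapped. The Col9a3 share was 51.4 ± 1.01% in KO (SD, n = 2) and 49.9 ± 1.09% in controls (SD, n = 3), with overlapping libraries. The type IX sum stood at 3.61 to 4.74 times the Col2a1 RPKM, and KO values of 4.01 and 4.51 lay inside the control range. Col2a1, Col9a2 and Col9a3 shared a profile that peaked in control replicate 3. The nearest member to Col2a1 by root mean square distance of centred log2 CPM over the 5 libraries was Col9a3 (0.12), and Col9a2 and Col9a3 were nearest to each other (0.097). Their longest transcripts have a GC content of 62.2% (Col2a1), 62.7% (Col9a2) and 59.2% (Col9a3), beside 52.2% for Col9a1. Comp, at 59.9% GC, was lowest in control replicate 3, and the part of GC content in the values of that library was not tested for single genes.

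Acan encodes aggrecan, the large proteoglycan of cartilage (Entrez 11595, chromosome 7, 79053226 to 79115099). It was 116, 112 and 124 CPM in controls and 78.6 and 98.9 CPM in KO. Both KO libraries were below every control library, and the control spread was narrow, with a coefficient of variation of 5.51%. The log2 fold change of -0.40 (SE 0.13, 95% interval -0.70 to -0.11) did not pass over all genes (edgeR adjusted p = 0.11). It passed with DESeq2 (adjusted p = 0.0427), limma voom (adjusted p = 0.00704), library size scaling (edgeR adjusted p = 0.0374) and without control replicate 3 (edgeR adjusted p = 0.0433). Acan has the longest transcript of the 10 genes, with 7355 bases, and with length and GC offsets its log2 fold change was -0.21 (SE 0.095, edgeR adjusted p = 0.256).

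Comp encodes cartilage oligomeric matrix protein, which binds collagen and is also made in tendon (Entrez 12845, chromosome 8, 70373548 to 70382066). It was 29.6, 24.9 and 22.9 CPM in controls and 35.4 and 39 CPM in KO. Both KO libraries were above every control library, and the log2 fold change of 0.53 (SE 0.14, 95% interval 0.22 to 0.83) did not pass (edgeR adjusted p = 0.0626). Comp passed with DESeq2 (adjusted p = 0.0128), limma voom (adjusted p = 0.0127), no count filter (edgeR adjusted p = 0.0381), and without control replicate 2 (edgeR adjusted p = 0.0442) or control replicate 3 (edgeR adjusted p = 0.0208). Tendon markers were also higher in sum: the summed level of Tnmd, Scx, Mkx, Thbs4, Fmod and Kera was 312 to 326 CPM in controls and 342 and 358 CPM in KO. Within that list, 3 of 6 genes had positive and 3 negative log2 fold changes, 0 passed with edgeR, 1 with DESeq2 and 2 with limma voom (1 at an unadjusted p under 0.05), and Scx, a transcription factor of tendon, had 0.73 (SE 0.18, edgeR adjusted p = 0.0559) and passed with length and GC offsets (0.48, SE 0.11, edgeR adjusted p = 0.0409). Thbs4, a thrombospondin of tendon, had 0.24 (SE 0.12, edgeR adjusted p = 0.265), or 0.22 with offsets. Other tendon markers went the other way. Tnmd had -0.16 (SE 0.12, edgeR adjusted p = 0.482), or -0.34 with offsets (edgeR adjusted p = 0.0636). Mkx had -0.25 (SE 0.17, edgeR adjusted p = 0.428), or -0.12 with offsets. For both genes each KO library lay below every control library, as for 20% of all genes. The part of tendon in the Comp values was not tested.

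Matn3 was 0.972, 1.24 and 1.12 CPM in controls and 1.53 and 0.84 CPM in KO. The KO libraries lay on either side of all controls, and with such low counts the interval was wide (log2 fold change 0.099, 95% interval -0.66 to 0.86, edgeR adjusted p = 0.902). Cnmd (Entrez 16840, chromosome 14, 79637682 to 79662194) was 26.9, 32.2 and 28.2 CPM in controls and 29.8 and 28.4 CPM in KO. All 5 libraries lay close together, and the log2 fold change was 0.0016 (95% interval -0.28 to 0.28, edgeR adjusted p = 0.997).

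Cytl1 was the single member that passed (Entrez 231162, chromosome 5, 37735519 to 37739820). Its level was 171, 199.6 and 173 CPM in controls and 263 and 274 CPM in KO. Both KO libraries were above every control library, with group means of 269 ± 7.74 CPM in KO (SD, n = 2) and 181 ± 16 CPM in controls (SD, n = 3). The log2 fold change was 0.57 (SE 0.12, edgeR adjusted p = 0.0323), or 1.48-fold. Its transcript has 974 bases, the shortest of the 10 genes. With length and GC offsets the log2 fold change was 0.18 (SE 0.098, edgeR adjusted p = 0.338) and with length offsets alone 0.17 (SE 0.13, edgeR adjusted p = 0.634), so the call was lost. Length offsets alone left calls at 0.12% of all genes. It was also lost with library size scaling (edgeR adjusted p = 0.0581) and without control replicate 1 (0.202), KO replicate 1 (0.345) or KO replicate 2 (0.243), where the log2 fold change was 0.42, 0.53, 0.60 and 0.54.

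**Figure D3:**
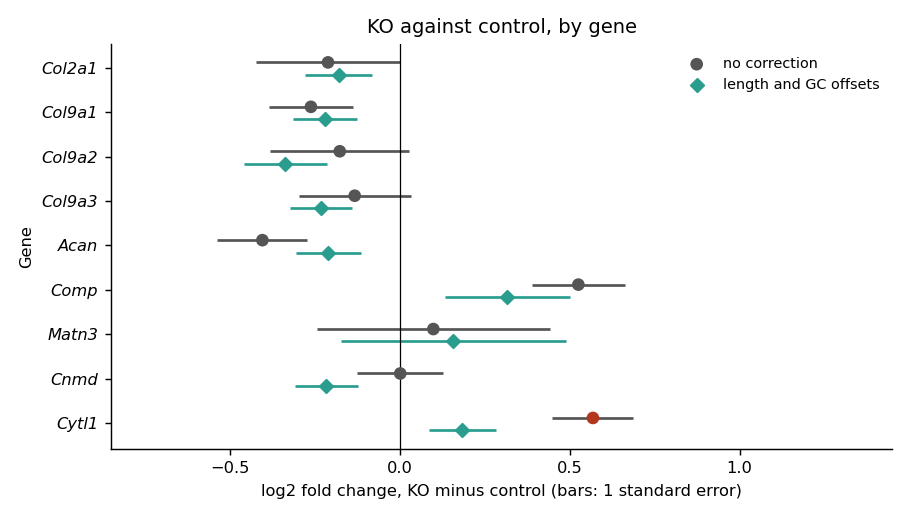
Log2 fold change of 9 cartilage genes, KO minus control, with bars of 1 standard error, without correction (circles, red where adjusted p was under 0.05) and with length and GC offsets (green diamonds). Cytl1 moves from 0.57 to 0.18 with the offsets, Cnmd from 0.0016 to -0.22, and the type II and type IX collagen genes, Acan and Cnmd all lie between -0.34 and -0.18 with them.

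Per Acan, the short members Cytl1 and Comp were higher in KO, while the short member Cnmd overlapped between the groups. Cytl1 stood at 11.1, 13.5 and 10.5 times the Acan RPKM in controls and at 25.3 and 20.9 times in KO. Comp stood at 0.775, 0.679 and 0.56 times Acan in controls and at 1.37 and 1.2 times in KO. Both ratios were higher in each KO library than in every control library. Cnmd stood at 1.189, 1.478 and 1.161 times Acan in controls and at 1.949 and 1.475 times in KO, which overlapped. The pairs were chosen after their values were seen, and the ratios carry no test. Of the 3 tested members with transcripts under 2500 bases, 3 had positive log2 fold changes, and of the 6 with at least 2500 bases, 5 had negative ones. Among the short ones Cnmd had 0.0016, and its sign turned in several fits. Across the 9 members the fold change and the transcript length had a Spearman's rho of -0.87, and across 19 other cartilage matrix genes -0.65, as descriptions over genes that share the same 5 libraries. With length and GC offsets the same coefficients were -0.28 and -0.095.

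**Figure D4:**
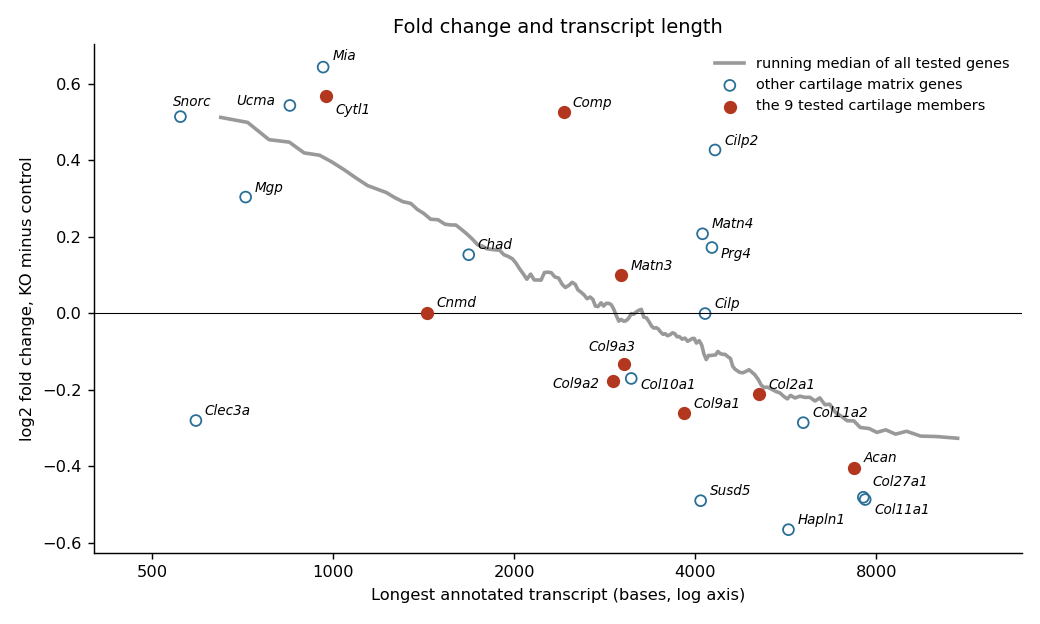
Log2 fold change, KO minus control, against the longest annotated transcript (log axis) for the 9 tested cartilage members and 16 of 19 other cartilage matrix genes, with 3 genes under 2 CPM in at least 1 library left out. The grey line is the running median of the tested genes with a known length over windows of 500 genes, and Comp (0.53), Cilp2 (0.43) and Clec3a (-0.28) lie far from it.

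With length and GC offsets the collagen genes, Acan and Cnmd had similar log2 fold changes, and no member passed. They were -0.18 for Col2a1 (SE 0.097), -0.22 for Col9a1 (SE 0.094), -0.34 for Col9a2 (SE 0.12), -0.23 for Col9a3 (SE 0.090), -0.21 for Acan (SE 0.095) and -0.22 for Cnmd (SE 0.093), with edgeR adjusted p between 0.165 and 0.345. The median of the 9 members was -0.21, beside -0.0034 for all genes, and 3.36% of all genes passed in that fit. On the offset scale Col9a2 was 74.4, 66.7 and 70.9 CPM in controls and 47.2 and 64.8 CPM in KO, and Col9a3 119.8, 122 and 128 CPM in controls and 95.7 and 114 CPM in KO. Control replicate 3 no longer stood out for either gene. On that scale 5 of the 9 members, Acan, Cnmd and the 3 type IX genes, had both KO libraries below every control library, where 17.8% of all genes did, and Comp had both above, where 19% did (36.8% in either direction). At an unadjusted p under 0.05 in that fit, 5 members were lower and 0 were higher, where 8.22% of all genes were lower and 11% higher. Col2a1 (84.9 to 106 CPM in controls, 81.2 and 86.4 CPM in KO) overlapped. Comp had 0.32 (SE 0.18), Cytl1 0.18 and Matn3 0.16 (SE 0.33). The lower values at an unadjusted p under 0.05 were not there with length offsets alone. Col2a1, Acan, the 3 type IX genes and Cnmd then had edgeR unadjusted p between 0.0638 and 0.821, and the member median was -0.13. Comp was higher in the length fit (0.45, edgeR unadjusted p = 0.00946), where 6.78% of all genes were higher and 5.36% lower at that threshold.

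The wider matrix of cartilage was described by 19 genes outside the 10 members. In the edgeR fit without offsets 1 of 19 rose, Mia, 0 fell and 18 did not pass, with a median log2 fold change of 0.17. With DESeq2, which called 12.7% of its genes, 8 of the 19 passed, and with limma voom, which called 28%, 9 did. At an unadjusted p under 0.05 in the edgeR fit, 5 were higher and 4 lower, where 21.9% of all genes reached it. Mia, which encodes a small protein secreted by chondrocytes and melanoma cells, rose by 0.64 (SE 0.11, edgeR adjusted p = 0.0223), with 0.28 (SE 0.087) and no call with length and GC offsets (edgeR adjusted p = 0.105). Of the 11 matrix genes of at least 2500 bases, 7 had negative and 4 positive values, and of the 8 shorter ones 7 had positive values and 1 a negative one. The examples were chosen after their values were seen, and none passed with edgeR, with or without offsets. Among the long genes were the fibrillar collagen genes Col11a1 (-0.49, SE 0.14, and -0.20 with offsets) and Col27a1 (-0.48, SE 0.14, and -0.34 with offsets). Hapln1, the link protein that ties aggrecan to hyaluronan, had -0.57 (SE 0.18) and -0.26 with offsets, while the long gene Cilp2 had 0.43 (SE 0.14) and 0.33 with offsets. Among the short genes were Ucma, a secreted chondrocyte protein (0.54, SE 0.14, and 0.11 with offsets), and Snorc, a chondrocyte membrane proteoglycan (0.51, SE 0.14, and -0.11 with offsets). The short gene with a negative value was Clec3a, a lectin gene of cartilage (-0.28, SE 0.20, and -0.77 with offsets). With offsets the list median was -0.10, and 0 of 19 passed (edgeR; 3 higher and 5 lower at an unadjusted p under 0.05, which 19.2% of all genes reached in that fit). Col10a1, the collagen gene of hypertrophic chondrocytes, was low, at 2.02 RPKM over the 5 libraries.

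Genes that control chondrocytes or build the sulfated chains of aggrecan were described next. Of 13 tested regulators 0 passed with edgeR or DESeq2 and 4 with limma voom (2 higher and 1 lower at an unadjusted p under 0.05), with a median log2 fold change of -0.14 and 0.056 with offsets. Sox9, which was chosen for its role, had -0.14 (SE 0.13, edgeR adjusted p = 0.58), Sox6 had -0.39 (SE 0.16, edgeR adjusted p = 0.184) and the homeobox gene Barx1 0.87 (SE 0.29, edgeR adjusted p = 0.111). With offsets these were -0.041 for Sox9, -0.060 for Sox6 and 0.39 for Barx1. Of 12 genes of chondroitin sulfate synthesis 1 fell with edgeR, 0 rose and 11 did not pass, with a median of -0.30. With DESeq2 3 of the 12 passed, and with limma voom 7 did. At an unadjusted p under 0.05 in the edgeR fit, 5 were lower and 0 higher, where 10.3% of all genes were lower. Both KO libraries lay below every control library for 7 of the 12, where 20% of all genes did. The gene that fell with edgeR was Slc26a2, the sulfate transporter that feeds sulfation (-0.64, SE 0.14, edgeR adjusted p = 0.0341). Its transcript has 7814 bases, and with length and GC offsets it had -0.32 (SE 0.11) and no call (edgeR adjusted p = 0.147). The list's median transcript had 5091 bases, and its median with offsets was -0.10. With offsets both KO libraries lay below every control library for 2 of the 12 and above for 1. Of all genes 17.8% lay below and 19% above on that scale. At an unadjusted p under 0.05 in the edgeR offset fit, 3 were lower and 1 higher, where 8.22% of all genes were lower and 11% higher.

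Enzymes that cut or tie the matrix gave 1 further call with edgeR. Of 10 proteases and inhibitors 0 passed with edgeR or DESeq2 and 4 with limma voom (1 higher and 1 lower at an unadjusted p under 0.05), with a median of -0.020 and -0.065 with offsets. Mmp13, a collagenase of hypertrophic cartilage, had -1.95 (SE 0.66, edgeR adjusted p = 0.12), and the inhibitor gene Timp1 0.37 (SE 0.15, edgeR adjusted p = 0.174). Mmp13 was low, with 42, 135 and 24 counts in the control libraries and 20 and 5 in KO. With offsets Mmp13 had -1.84 and Timp1 -0.052. Of 12 elastic fibre genes 1 fell with edgeR, 0 rose and 11 did not pass, with a median of 0.019 and -0.032 with offsets. With DESeq2 2 of the 12 passed and with limma voom 5 did, and 2 were lower and 0 higher at an unadjusted p under 0.05 (edgeR). Lox, which encodes the enzyme that cross-links elastin and collagen, fell by 0.63 on the log2 scale (SE 0.15, edgeR adjusted p = 0.0466), with -0.43 (SE 0.13) and no call with offsets (edgeR adjusted p = 0.11). Eln, the elastin gene, was chosen for its role and had -0.26 (SE 0.20, edgeR adjusted p = 0.463), or -0.29 with offsets. Elastic fibres belong to dermis as well as to ear cartilage.

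Markers of other tissues in the ear sample moved to differing degrees. The summed level of 10 skeletal muscle genes was 5711 to 6135 CPM in controls and 7435 and 8283 CPM in KO, and 4 of 10 rose with edgeR: Mb (0.89, SE 0.11), Pvalb (0.94, SE 0.15), Tnnc2 (0.71, SE 0.12) and Mylpf (0.60, SE 0.13) in a list with a median transcript of 1275 bases. With DESeq2 7 of the 10 muscle genes passed, and with limma voom 7 did. With offsets Mb (0.50, SE 0.087) and Pvalb (0.58, SE 0.13) passed, Tnnc2 (0.21, edgeR adjusted p = 0.37) and Mylpf (0.15, edgeR adjusted p = 0.607) did not, and Ckm, a muscle creatine kinase gene, passed (0.37, edgeR adjusted p = 0.0472), so that 3 of 10 were higher with a median of 0.18 in place of 0.45. The summed level of 10 adipocyte genes was 905 to 1450 CPM in controls and 1636 and 1430 CPM in KO, which overlapped, and 1 of 10 rose, Cfd (0.71, SE 0.15, edgeR adjusted p = 0.0351). With offsets Cfd had 0.20 and no call (edgeR adjusted p = 0.743), while Fabp4, a fatty acid binding protein gene, passed (0.72, SE 0.14, edgeR adjusted p = 0.0261), and the list median was 0.18 in place of 0.23. Without offsets 8 of the 10 had positive and 2 negative log2 fold changes. The negative ones were Pparg (-0.33, SE 0.13, and -0.42 with offsets) and Car3 (-0.22, SE 0.12, and -0.35 with offsets). With DESeq2 3 of the 10 adipocyte genes passed, and with limma voom 5 did. The 7 dermal fibroblast genes lay at 26000 to 33450 CPM in controls and at 27320 and 26980 CPM in KO, and 0 passed with edgeR, 1 with DESeq2 and 2 with limma voom (1 at an unadjusted p under 0.05), with -0.38 (SE 0.11) for Pdgfra and 0.27 (SE 0.13) for Dpt, or -0.12 and 0.13 with offsets. Of 6 tested bone genes 0 passed with edgeR, DESeq2, limma voom or at an unadjusted p under 0.05, with 0.97 (SE 0.69) for Bglap and 0.44 (SE 0.42) for Sp7, or 0.38 and 0.39 with offsets. Bglap was low, with 13, 4 and 9 counts in the control libraries and 17 and 10 in KO. The summed level of the 7 bone genes was 9.33 to 12.7 CPM in every library, and Ibsp, a defining marker of bone, was at 0 counts in 4 libraries. Of 6 keratinocyte genes 0 passed with edgeR, 2 with DESeq2 and 2 with limma voom (2 at an unadjusted p under 0.05), with 0.81 (SE 0.20, edgeR adjusted p = 0.0506) for Lor and 0.41 (SE 0.12) for Ivl, or 0.44 and 0.26 with offsets, and their sum was 33950 to 43470 CPM in controls and 50520 and 47980 CPM in KO. Of 6 tested hair follicle genes (keratins and Tchh) 0 passed with edgeR or limma voom and at an unadjusted p under 0.05 and 3 with DESeq2, with 4.59 (SE 1.74) for Krt27 and 5.17 (SE 2.01) for Krt71, or 4.33 and 5.06 with offsets. KO replicate 1 alone carried these values: Krt27 was 109 CPM there, 2.78 CPM in KO replicate 2 and 1.71 to 3.28 CPM in controls, and without KO replicate 1 the list median went from 4.64 to -0.11. Without KO replicate 2, 6 of the 6 passed. The part of these tissues in the cartilage values was not tested.

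**Figure D5:**
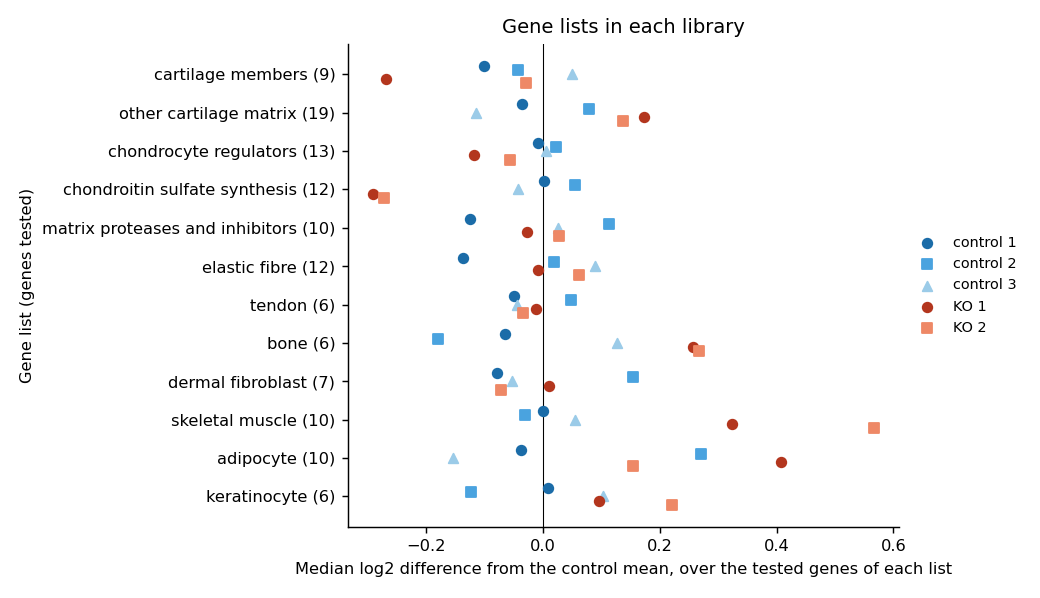
Median log2 difference from the control mean over the tested genes of each list, in each library, with the number of genes tested in parentheses and hair follicle genes left out for scale. Cartilage members lie at -0.27 and -0.029 in KO and between -0.10 and 0.051 in controls, while skeletal muscle genes lie at 0.32 and 0.57 in KO.

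The mean profile of the 9 tested members was nearly flat, since positive and negative members offset each other. Its centred log2 values were -0.075, -0.039 and 0.11 in controls and -0.051 and 0.050 in KO. The 5 genes nearest to it by root mean square distance, among 14628 with a mean of at least 1 CPM, were Rtl6 (0.018), Sf3b2 (0.019), Nr6a1 (0.021), Slc35a4 (0.022) and Plod1 (0.022), where the median distance of all these genes was 0.20. With 5 libraries many genes lie close to any flat profile. Within the members, Acan and Col9a1 were nearest to each other (0.12), as were Cytl1 and Comp (0.16), and Comp was farthest from Col2a1 (0.51).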

How the data were processed

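RNA of mouse ear skin was sequenced as total RNA in 5 libraries, 3 control and 2 KO, grouped and numbered by their titles. The deposited values are raw counts, 1 whole number per Entrez gene and library. Per the submitters' processing notes, the tools included FastQC, HISAT2 2.0.4 and DESeq2 1.16.1, with build GRCm38 (mm10). How reads were counted, by strand or not, was not given in the sources used here.

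Everything else was computed from these counts. Symbols and positions came from RefSeq on GRCm38.p6 (25275 of 27179 identifiers had a symbol), strands, overlaps and the longest transcript from GENCODE on GRCm38. A transcript length was found for 90.5% of tested genes. filterByExpr left 17472 genes. Libraries were scaled by TMM (factors 0.936 to 1.07) and tested with edgeR 4.0.16 in R 4.3.3 (quasi-likelihood F test, robust, Benjamini-Hochberg, threshold 0.05; biological coefficient of variation 0.154). Alternatives used DESeq2 1.42.0, limma 3.58.1 and, for length and GC offsets (smooth trends per library, with a term each for length and GC), mgcv 1.9.3. Genes without a length got each library's mean trend. The fit was tested on simulated data. Profiles used log2(CPM + 0.1).

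Chi-square per degree of freedom between libraries of a group was 22.9 to 76.3, so no library was a duplicate of another. Members and lists were chosen with earlier results of these data known. The text names all members, Cd1d1, in each list up to 4 genes past the threshold with the smallest p or else the 2 with the smallest p, and the 5 genes nearest in profile. Some further listed genes are named for their role or direction. Of the listed genes 1, Krt85, was not matched.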

Additional observations from a re-analysis of the deposited data

How the results depend on the processing

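Of 16 alternatives, scaling by DESeq2 size factors or upper quartile, a filter of at least 1 CPM in 2 libraries and robust estimation off left the member count at 1. In these fits the member median stayed between -0.135 and -0.1325. With library size alone the count was also 1, but the member past the threshold was Acan, as lower in KO, in place of Cytl1. The number of members past the threshold was 2 with no filter on low counts, 3 with DESeq2, 3 with limma voom, and 0 under either offset fit (length and GC, or length). Leaving out a replicate gave 0 to 3 members: 0 with control 1, KO 1 or KO 2 left out, 2 with control 2 left out and 3 with control 3 left out. Fits with a single KO library take its spread from the controls. The count over all genes went from 657 to 1242 with library size alone, 1036 with no filter, 1834 with DESeq2, 4888 with limma voom, 21 with length offsets, and 0 to 3277 with a replicate left out (0 with control 1 left out, 1334 with control 2, 3277 with control 3, 1 with KO 1 and 128 with KO 2). Where it was 0 in edgeR, 2253 genes had an unadjusted p under 0.05, and the other tools were not run on those 4 libraries.

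The member median of -0.13 was -0.28 with library size alone, where the median of all genes was -0.16. It was 0.00011 with limma voom, -0.21 with length and GC offsets, and -0.30 to 0.027 with a replicate left out. The sign of members near 0 turned in several fits, none of them past the threshold. Cnmd was -0.15 with library size alone, -0.0011 with no filter, -0.00052 with the 1 CPM filter, -0.22 with length and GC offsets, -0.26 with length offsets, and -0.048 to 0.081 with a replicate left out. Col2a1 was 0.00011 with limma voom and -0.34 to 0.077 with a replicate left out, Col9a2 -0.48 to 0.077 and Col9a3 -0.30 to 0.027. Matn3 was -0.050 with library size alone and -0.40 to 0.46 with a replicate left out. The cause was not tested.

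With the replicate number as a block, 2 members passed (Cytl1, and Comp at an edgeR adjusted p of 0.0464), 2037 genes (11.7%) passed over all genes, and the member median was 0.021. Cnmd was -0.015, Col2a1 0.075 and Col9a3 0.021 under the block. Only the controls have a replicate 3, so under the block control replicate 3 adds nothing to the fold change. With control replicate 3 left out and no block, the member median was 0.027 and Col2a1 0.077. The titles do not say that a number marks shared animals, and same-numbered libraries had correlations of 0.025 and 0.086 in their deviations from the group means. Of 192 fits of the other lists, the count of genes past the threshold stayed within 1.5 times in 111 and moved beyond it in 81. Counting error was widest for Matn1, with at most 2 counts per library, and Matn3, with at most 95.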
